A study of Homo sapiens with 10 samples.

Results

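The genes described here encode chromatin modifiers and remodellers, in U937 cells, a human monocytic line, whose Fc gamma receptors had been cross-linked. They were chosen by symbol: probe sets with 1 gene symbol in the platform annotation that started with HDAC, KMT2, KDM, KAT, SMARC, BRD or ARID, were CHD with a number, or were EZH1, EZH2, EP300 or CREBBP, without symbols starting with KATN. This gave 55 genes, each with 1 probe set, of the 7713 genes that the array measured with a probe set of 1 symbol. The array held 8793 probe sets, 47 of them for controls. KDM5D lies on chromosome Y and its level is not described, which leaves 54. The rule reads symbols and no signal, except that of several probe sets for a gene the brightest would have been taken. The symbols also brought in BRD7P3, a pseudogene, and BRD3OS, a gene beside BRD3 that is not known here to act on chromatin.

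There were 10 arrays in 5 groups of 2. The cells of all groups, control included, had been differentiated with interferon gamma. The control group had no cross-linking and no time listed. In the other groups CD32, the low-affinity receptor for IgG antibodies, or CD64, the high-affinity receptor, had been cross-linked for 2 h or 6 h. Each cross-linked group consisted of an array and its duplicate, with no word on separate cultures. The p-values therefore reflect only how far duplicate arrays differ, which may be technical. The source name of 1 CD32 2 h array gave a different receptor number, and the array was kept as CD32, as in its title and description. U937 is 1 line grown in culture. Its arrays carried the labelled cell type: 11 of 13 monocytic and myeloid markers on the array and 7 of 7 interferon gamma response genes lay above the floor of 37.5 on all 10 arrays, while CD14 lay above it on 3 arrays and MPO on 2. The summed signal of the monocytic list was 22837.3 and 24282.6 in control and 14170.1 to 27188.5 in the other groups, lowest after 2 h of CD64. The summed signal of the interferon gamma response genes was 15498.7 and 15568.8 in control, 20839.8 and 20937.2 after 2 h of CD32, 34442.2 and 36365.9 after 6 h of CD32, 12727.6 and 12746.5 after 2 h of CD64 and 21493.5 and 22255.3 after 6 h of CD64. Of the T cell, B cell and epithelial or fibroblast markers 1 of 6, 1 of 4 and 1 of 8 lay above the floor on all arrays. Of natural killer markers it was 1 of 5, the gene NKG7, and of erythroid and platelet markers 1 of 4, the globin gene HBB. NKG7 lay far above the floor, at 1408.7 to 2299.6 with a median of 1978.2 over the 10 arrays. The summed erythroid and platelet signal was 327.6 and 358.3 in control, 321.0 to 459.0 after CD32, 590.3 and 609.6 after 2 h of CD64 and 481.7 and 500.2 after 6 h of CD64. The part of the cell type and interferon lists in the changes below was not tested.

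Chromatin packs DNA around histones, and the enzymes described here change it in a few ways. Acetyltransferases add acetyl groups to histone tails, which bromodomain proteins read and deacetylases remove, and open, acetylated chromatin is typical of active promoters and enhancers. Methyltransferases and demethylases set marks that go with activity or, in the case of the Polycomb mark laid down by EZH2 and EZH1, with repression. Remodellers of the SWI/SNF, ISWI and CHD families use ATP to slide or evict nucleosomes. In monocytes and macrophages these proteins are known to set how inflammatory and interferon-responsive genes answer a stimulus.

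The values are deposited signal intensities, linear and in arbitrary units, already scaled: with 2% of probe sets trimmed from either end, the mean of an array was 500.5 to 500.6. Signals of different genes come from different probes and are not compared with each other. Tests used limma on the log2 scale over the 7708 probe sets that exceeded the floor on 2 or more arrays, with lower values set to it. Called means an adjusted p below 0.05 over all 7708. Of the 54 genes 53 were tested, 46 of them above the floor on all 10 arrays. BRD7P3, at 1.9 to 24.2, stayed below the floor on all 10 and was not tested. The genes that passed through some arrays were ARID3B, above the floor on 9, CHD2 and KMT2D on 8, HDAC4, HDAC9 and SMARCA1 on 5 and BRDT on 3. RNA was taken from all cells of a culture, so fewer cells with a transcript and less of it per cell cannot be told apart.

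By limma's F-test 25 of 53 genes, or 47.2%, differed among the 5 groups, where 34.5% of all probe sets did. Among the 46 genes above the floor on every array the count was 29, or 63.0%, beside 60.4% of the 4924 probe sets of the same kind, so the share lay near that of other well detected probe sets. In 1 or more of the 4 comparisons with control 26 genes, or 49.1%, were called, 7 of them higher and 19 lower, where 35.4% of all probe sets were called, 17.5% higher and 19.8% lower in at least 1. Among genes above the floor on every array it was 31 of 46, or 67.4%, beside 60.8% of such probe sets. CHD1 was called higher and KDM5B lower in each of the 4, which share the same 2 control arrays. CREBBP rose after CD64, KDM6A and ARID3B after CD32, and BRD3, KDM3B, SMARCA4, CHD4 and HDAC6 were among those that fell. The other 27 had log2 changes between -1.28 and 1.34 without a call, and 10 of them stayed within 0.5 of control in all 4 comparisons. Within pairs of arrays the median difference over the 53 genes was 0.217 to 0.254 on the log2 scale.

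**Figure D1:**
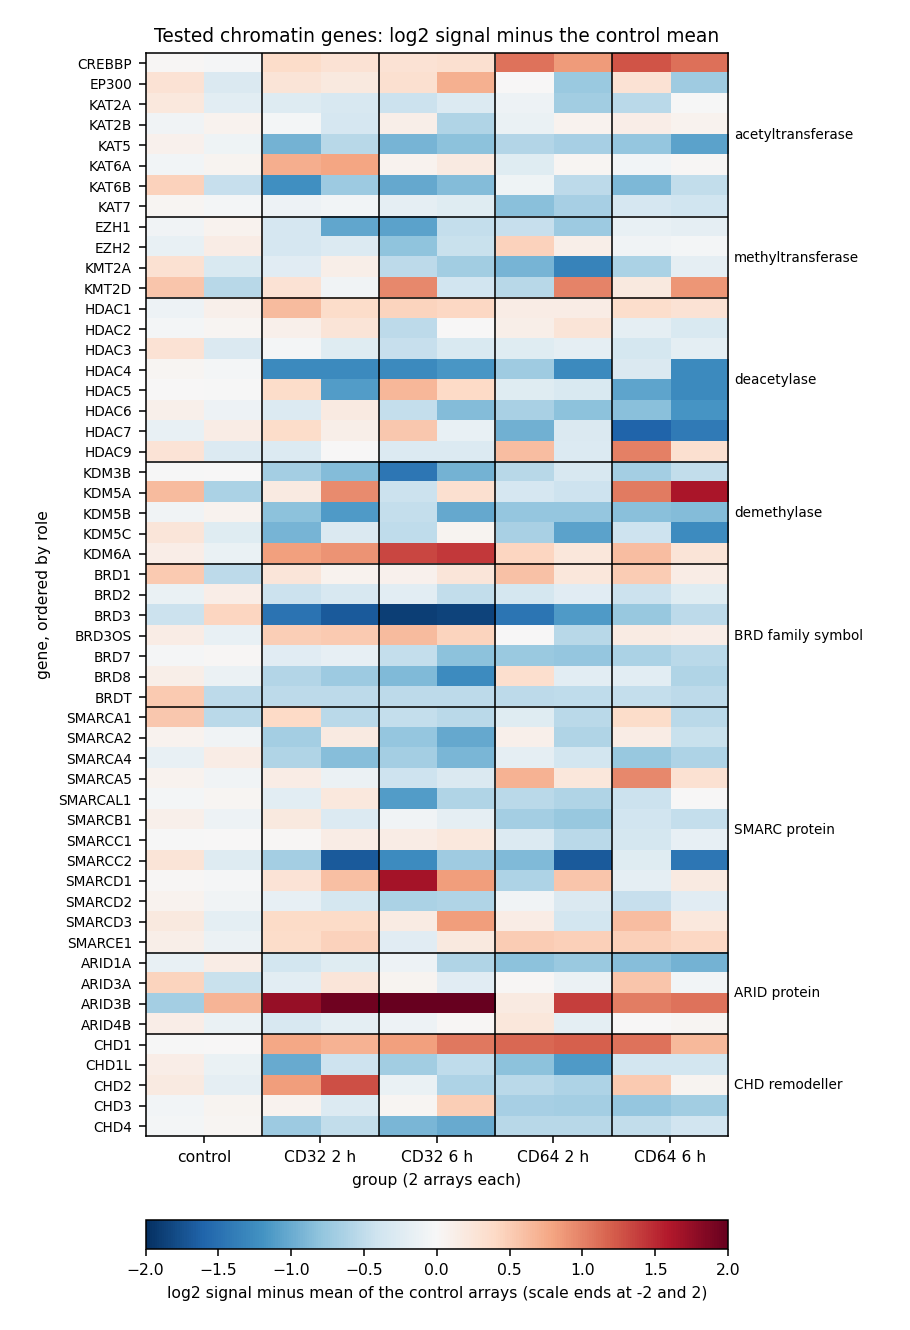
Log2 signal minus the mean of the control arrays for the 53 tested genes (rows, ordered by role) on the 10 arrays (columns, 2 per group), with values under 37.5 set to 37.5; red is above control, blue below, and the scale ends at -2 and 2. CHD1 is red and KDM5B blue in all cross-linked groups, CREBBP is darkest after CD64, and ARID3B and KDM6A are darkest after 6 h of CD32.

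Promoters are shown for genes on which the results turn: CHD1 and KDM5B, called in opposite directions in every comparison with control, CREBBP, higher after CD64, and KDM6A, higher after CD32. The sequences are the 250 bases before the RefSeq start site in GRCh38.p14, read 5′ to 3′ on the gene's strand. CREBBP has 2 start sites in the table, of which the first is shown. Capitals mark matches on either strand. The motifs were the GC box, with the letters GGGCGGG, the letters CCAAT of the box of that name, and the E-box, with the letters CACGTG.
CHD1, chr5:98929008-98929257, minus strand: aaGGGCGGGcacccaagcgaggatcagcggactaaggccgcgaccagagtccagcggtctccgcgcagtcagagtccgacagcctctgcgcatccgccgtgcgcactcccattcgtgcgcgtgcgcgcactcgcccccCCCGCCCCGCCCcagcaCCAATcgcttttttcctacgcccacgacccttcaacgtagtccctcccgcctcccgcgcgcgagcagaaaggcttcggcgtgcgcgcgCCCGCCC
CREBBP, chr16:3880714-3880963, minus strand: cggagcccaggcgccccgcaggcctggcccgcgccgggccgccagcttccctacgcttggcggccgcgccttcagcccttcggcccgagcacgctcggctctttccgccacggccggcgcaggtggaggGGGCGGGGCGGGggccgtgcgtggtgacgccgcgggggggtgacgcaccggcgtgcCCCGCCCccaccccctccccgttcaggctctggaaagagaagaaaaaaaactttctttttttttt
KDM6A, chrX:44872938-44873187, plus strand: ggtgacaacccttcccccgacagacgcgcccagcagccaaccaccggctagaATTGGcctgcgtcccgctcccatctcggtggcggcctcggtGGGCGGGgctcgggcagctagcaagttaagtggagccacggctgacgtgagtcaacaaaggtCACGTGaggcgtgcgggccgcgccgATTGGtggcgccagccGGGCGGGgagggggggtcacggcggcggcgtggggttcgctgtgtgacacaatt
KDM5B, chr1:202808422-202808671, minus strand: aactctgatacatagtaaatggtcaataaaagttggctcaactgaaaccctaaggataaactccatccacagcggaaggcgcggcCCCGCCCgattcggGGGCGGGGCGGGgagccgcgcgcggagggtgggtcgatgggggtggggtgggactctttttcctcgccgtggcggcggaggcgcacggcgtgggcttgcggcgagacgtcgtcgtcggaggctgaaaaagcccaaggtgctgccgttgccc

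The window of CHD1 held 4 GC boxes and 1 CCAAT box, those of CREBBP and KDM5B 3 GC boxes each, and that of KDM6A 2 GC boxes, 2 CCAAT boxes and 1 E-box. GC boxes occurred on both sides, in the genes that rose and in the gene that fell. Of 54 genes 47 had a promoter in the table. A GC box was in 46.8% of these 47 windows and in 31.4% of the windows of all 27305 genes, taking the first start site of each, and a CCAAT box in 21.3% and 33%. An E-box was in 8.51% and 6.49%. The core of the interferon-stimulated response element (TTTC, any 2 bases, then TTTC again) was in 2 of the 47, SMARCA5 and SMARCB1, or 4.26% beside 3.07%. A cyclic AMP response element (TGACGTCA) was in 0 of the 47, beside 1.77% of all. No matches of different motifs overlapped in these 47 windows. A match is a string of letters and not a shown binding site.

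Of 8 acetyltransferases, 4 were called in 1 or more comparisons with control, 50% beside the 35.4% of all probe sets given above. The counts of this family were 2, 1, 2 and 2 of 8 in the order CD32 2 h, CD32 6 h, CD64 2 h and CD64 6 h, where 15.5%, 20.0%, 15.9% and 20.6% of all probe sets were called. Such small families are described by their members, and nothing is read from these shares. CREBBP, a coactivator that acetylates histones at enhancers and promoters, read 402.3 and 386.6 in control, 508.1 and 479.5 after 2 h of CD32, 483.6 and 492.3 after 6 h of CD32, 837.5 and 712.7 after 2 h of CD64 and 944.3 and 849.6 after 6 h of CD64. All 4 CD64 arrays lay above all CD32 arrays, which lay above the control arrays. Against control it rose after CD64, 1.96-fold (log2 0.97 ± 0.132 SE, adjusted p = 0.000736) at 2 h and 2.27-fold (log2 1.18 ± 0.132 SE, adjusted p = 0.000113) at 6 h, and both calls held in all 10 fits that each left out 1 array. After CD32 it read 1.25-fold and 1.24-fold above control at 2 h and 6 h, without a call (log2 0.32 ± 0.132 SE, adjusted p = 0.14, and log2 0.31 ± 0.132 SE, adjusted p = 0.139). Its close relative EP300 read 143.2 and 96.2 in control, 140.7 and 133.7 after 2 h of CD32, 146.5 and 192.6 after 6 h of CD32, 117.8 and 70.2 after 2 h of CD64 and 142.9 and 71.7 after 6 h of CD64, and these groups overlapped with control except after 6 h of CD32, which lay above it without a call (log2 0.52 ± 0.448 SE, adjusted p = 0.483).

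KAT6A, an acetyltransferase known for its part in blood stem cells, read 608.2 and 661.8 in control, 1053.7 and 1094.9 after 2 h of CD32, 663.9 and 717.1 after 6 h of CD32, 539.0 and 648.8 after 2 h of CD64 and 607.9 and 643.3 after 6 h of CD64. It stood out on the CD32 2 h arrays, 1.69-fold (log2 0.76 ± 0.127 SE, adjusted p = 0.00235) above control, and this call held in all 10 fits without 1 array and under every alternative. At 6 h of CD32 the change was 0.12 on the log2 scale, without a call. KAT5, the catalytic subunit of the NuA4 complex, read 531.6 and 467.3 in control, 258.9 and 337.9 after 2 h of CD32, 262.1 and 283.6 after 6 h of CD32, 330.7 and 314.4 after 2 h of CD64 and 292.5 and 236.3 after 6 h of CD64. All cross-linked arrays lay below both control arrays. KAT5 fell 1.69-fold (log2 -0.75 ± 0.208 SE, adjusted p = 0.0332) after 2 h of CD32, 1.83-fold (log2 -0.87 ± 0.208 SE, adjusted p = 0.0131) after 6 h of CD32 and 1.9-fold (log2 -0.92 ± 0.208 SE, adjusted p = 0.0089) after 6 h of CD64, and missed the threshold after 2 h of CD64 (log2 -0.63 ± 0.208 SE, adjusted p = 0.0679). The calls of KAT5 were lost without control replicate 1 (3 calls), control replicate 2 (2 h of CD32), CD32 2 h replicate 1, CD32 6 h replicate 1 or CD64 6 h replicate 2 (1 call each), with adjusted p up to 0.203.

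KAT7, which acetylates histones around replication origins and genes, read 440.6 and 419.6 in control, 401.1 and 413.3 after 2 h of CD32, 379.7 and 364.5 after 6 h of CD32, 240.9 and 271.1 after 2 h of CD64 and 341.1 and 326.7 after 6 h of CD64. The CD64 2 h arrays were the lowest, 1.68-fold (log2 -0.75 ± 0.166 SE, adjusted p = 0.0114) below control, a call lost without control replicate 1 or CD64 2 h replicate 1 (adjusted p up to 0.0742). KAT2A, KAT2B and KAT6B were not called in any comparison. KAT6B read 633.2 and 336.8 in control, 197.8 and 278.4 after 2 h of CD32, 226.0 and 252.7 after 6 h of CD32, 432.9 and 320.4 after 2 h of CD64 and 247.7 and 326.7 after 6 h of CD64, with control arrays far apart. The changes of KAT2A and KAT2B against control lay between -0.40 and 0.11 on the log2 scale.

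Of 4 methyltransferases, 2 were called, each lower in 1 comparison, which made 0, 1, 1 and 0 of 4 by comparison in that order. In 1 or more comparisons 19.8% of all probe sets were called lower. EZH2, the main catalytic subunit of the Polycomb repressive methyltransferase in dividing cells, read 371.5 and 457.0 in control, 327.5 and 340.4 after 2 h of CD32, 237.0 and 302.8 after 6 h of CD32, 569.9 and 448.0 after 2 h of CD64 and 393.3 and 399.0 after 6 h of CD64. It fell 1.54-fold (log2 -0.62 ± 0.198 SE, adjusted p = 0.0496) after 6 h of CD32, and all 4 CD64 arrays lay above the lower control array. Leaving out any array except CD32 6 h replicate 2 ended that call (adjusted p up to 0.257). EZH1, its relative in resting cells, fell short of a call, with log2 changes of -0.68, -0.78, -0.59 and -0.16 in the order CD32 2 h, CD32 6 h, CD64 2 h and CD64 6 h. KMT2A, which methylates histone H3 at active promoters and was found through leukaemia translocations, read 303.7 and 200.3 in control, 210.7 and 268.6 after 2 h of CD32, 172.0 and 152.1 after 6 h of CD32, 130.0 and 98.1 after 2 h of CD64 and 159.4 and 216.6 after 6 h of CD64. Its fall of 2.18-fold (log2 -1.13 ± 0.332 SE, adjusted p = 0.0421) after 2 h of CD64 was called, and was lost without any 1 array other than control replicate 2. KMT2D, which marks enhancers, reached up to 110.6, and the control and CD64 2 h pairs each had 1 array below the floor. It was not called.

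Proliferation genes, read beside EZH2 because it is known to be abundant in dividing cells, were lower in several groups. After 6 h of CD32 7 of 10 proliferation genes were called lower and 0 higher, with RRM2 down 2.04-fold and MCM2 down 1.97-fold. After 6 h of CD64 the count was also 7 of 10 lower, with TOP2A down 2.16-fold, and EZH2 there read 1.04-fold below control without a call (log2 -0.06 ± 0.198 SE, adjusted p = 0.922). After 2 h the counts were 5 lower with CD32, and 1 higher and 1 lower with CD64. Of all probe sets 10.3% and 9.94% were called lower after 6 h of CD32 and CD64. At 2 h it was 6.60% lower with CD32, and 7.64% higher and 8.24% lower with CD64. The part of proliferation in the change of EZH2 was not tested.

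Among 8 deacetylases, HDAC1 rose while HDAC4, HDAC6 and HDAC7 fell, which made 2, 2, 1 and 2 of 8 called by comparison. The order is CD32 2 h, CD32 6 h, CD64 2 h and CD64 6 h. Of all probe sets 15.5%, 20.0%, 15.9% and 20.6% were called in that order, and 35.4% in 1 or more. HDAC1, the core enzyme of several corepressor complexes, read 1945.0 and 2243.7 in control, 3228.7 and 2688.3 after 2 h of CD32, 2840.0 and 2788.2 after 6 h of CD32, 2324.2 and 2309.5 after 2 h of CD64 and 2662.9 and 2564.3 after 6 h of CD64. All 8 cross-linked arrays lay above both control arrays. It rose 1.41-fold (log2 0.50 ± 0.105 SE, adjusted p = 0.00883) and 1.35-fold (log2 0.43 ± 0.105 SE, adjusted p = 0.0149) after 2 h and 6 h of CD32, and read 1.11-fold and 1.25-fold higher after CD64 without a call. Both calls were lost without control replicate 1, that at 2 h also without CD32 2 h replicate 1, that at 6 h also without either CD32 6 h array, and both with arrays centred on the median. HDAC2 and HDAC3, which also act in corepressor complexes, though not all of them the same, were not called in any comparison, with log2 changes against control between -0.38 and 0.19.

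HDAC4, a deacetylase that shuttles between cytoplasm and nucleus, read 92.3 and 88.2 in control, 8.1 and 12.0 after 2 h of CD32, 14.2 and 40.3 after 6 h of CD32, 54.9 and 31.8 after 2 h of CD64 and 74.1 and 26.5 after 6 h of CD64. Both CD32 2 h arrays lay below the floor of 37.5, so it was at least 2.41-fold (log2 -1.27 ± 0.354 SE, adjusted p = 0.0348) lower there. At 6 h of CD32, with 1 array below the floor, the fitted fall of 2.32-fold (log2 -1.21 ± 0.354 SE, adjusted p = 0.0343) depends on the floor. Either call was lost without any 1 control or CD32 array. HDAC6, which mainly deacetylates tubulin and other cytoplasmic proteins, read 617.0 and 536.3 in control, 477.3 and 649.5 after 2 h of CD32, 414.0 and 314.4 after 6 h of CD32, 367.1 and 324.3 after 2 h of CD64 and 323.6 and 252.6 after 6 h of CD64. It fell 1.67-fold (log2 -0.74 ± 0.216 SE, adjusted p = 0.0415) at 2 h and 2.01-fold (log2 -1.01 ± 0.216 SE, adjusted p = 0.00663) at 6 h of CD64. The first call was lost without any 1 control or CD64 2 h array, the second without control replicate 1 or CD64 6 h replicate 2.

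HDAC7, a relative of HDAC4, read 110.0 and 133.7 in control, 157.1 and 131.9 after 2 h of CD32, 175.8 and 109.4 after 6 h of CD32, 62.2 and 99.1 after 2 h of CD64 and 40.0 and 45.5 after 6 h of CD64. The CD64 6 h pair was the lowest, just above the floor. HDAC7 fell 2.84-fold (log2 -1.51 ± 0.406 SE, adjusted p = 0.0224) there, a call lost without control replicate 2 or either CD64 6 h array. HDAC5 read 254.9 and 250.1 in control, 327.1 and 116.0 after 2 h of CD32, 399.1 and 333.8 after 6 h of CD32, 212.7 and 205.0 after 2 h of CD64 and 121.9 and 104.9 after 6 h of CD64, and its pair after 2 h of CD32 differed by 1.5 on the log2 scale, the widest gap of the 53 genes in that group. Against control HDAC5 was not called, at 2.23-fold lower after 6 h of CD64 (log2 -1.16 ± 0.408 SE, adjusted p = 0.0712). HDAC9 ran from 6.1 to 90.7, with 5 arrays at or below the floor, and was not called.

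Of the 5 demethylases described, KDM5B and KDM3B fell and KDM6A rose, which made 3, 3, 1 and 1 of 5 called by comparison. In the same order 15.5%, 20.0%, 15.9% and 20.6% of all probe sets were called, and 35.4% in 1 or more. With 5 genes nothing is read from these shares. KDM5B, which removes the methyl mark of active promoters, read 696.8 and 769.5 in control, 415.4 and 333.1 after 2 h of CD32, 524.4 and 361.9 after 6 h of CD32, 427.0 and 429.4 after 2 h of CD64 and 408.5 and 401.8 after 6 h of CD64. All 8 cross-linked arrays lay below both control arrays. It fell 1.97-fold (log2 -0.98 ± 0.192 SE, adjusted p = 0.00582) and 1.68-fold (log2 -0.75 ± 0.192 SE, adjusted p = 0.0185) after 2 h and 6 h of CD32, and 1.71-fold (log2 -0.77 ± 0.192 SE, adjusted p = 0.02) and 1.81-fold (log2 -0.85 ± 0.192 SE, adjusted p = 0.00869) after 2 h and 6 h of CD64. These calls were lost in 1 of 10, 3 of 10, 4 of 10 and 2 of 10 fits without 1 array, in the same order. The arrays whose loss ended a call were control replicate 1 (CD32 6 h, CD64 2 h), control replicate 2 (all but CD32 2 h), CD32 2 h replicate 2, CD32 6 h replicate 2, both CD64 2 h arrays and CD64 6 h replicate 2. The KDM5B calls of CD32 6 h and CD64 2 h were also lost with arrays centred on the median. Both were lost too without a filter on low values and without the variance trend. When only the groups compared were fitted, the CD64 6 h call alone was kept.

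KDM6A, which removes the Polycomb methyl mark, read 188.6 and 158.2 in control, 304.7 and 321.4 after 2 h of CD32, 435.8 and 461.1 after 6 h of CD32, 232.9 and 201.6 after 2 h of CD64 and 264.3 and 207.3 after 6 h of CD64. The CD32 6 h arrays were the highest and the CD32 2 h arrays next, and all CD64 arrays lay above control but below the CD32 arrays. It rose 1.81-fold (log2 0.86 ± 0.228 SE, adjusted p = 0.0278) and 2.6-fold (log2 1.38 ± 0.228 SE, adjusted p = 0.00158) after 2 h and 6 h of CD32. The 6 h call held in all 10 fits without 1 array, and that at 2 h was lost without control replicate 2 or either CD32 2 h array (adjusted p up to 0.132). After CD64 it read 1.25-fold and 1.36-fold higher, without a call. EZH2, which adds the mark that KDM6A removes, was lowest on the same CD32 6 h arrays. Its call there was lost in most fits without 1 array and under quantile, cyclic loess and median scaling. A link between the changes of these genes was not tested.

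KDM3B, which removes a repressive methyl mark, read 687.0 and 688.9 in control, 431.5 and 375.5 after 2 h of CD32, 252.6 and 357.9 after 6 h of CD32, 466.9 and 548.5 after 2 h of CD64 and 429.0 and 490.8 after 6 h of CD64. The control arrays agreed closely and all cross-linked arrays lay below them. It fell 1.71-fold (log2 -0.77 ± 0.19 SE, adjusted p = 0.0192) and 2.29-fold (log2 -1.19 ± 0.19 SE, adjusted p = 0.0012) after 2 h and 6 h of CD32, the second of which held in all 10 fits without 1 array, while the first was lost without any 1 control or CD32 2 h array. KDM5A and KDM5C were not called against control. KDM5C read lower in every group, with log2 changes between -0.86 and -0.23. KDM5A read 131.1 and 54.1 in control, 95.5 and 162.7 after 2 h of CD32, 62.6 and 105.3 after 6 h of CD32, 66.7 and 63.5 after 2 h of CD64 and 173.0 and 261.6 after 6 h of CD64, with control arrays far apart.

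**Figure D2:**
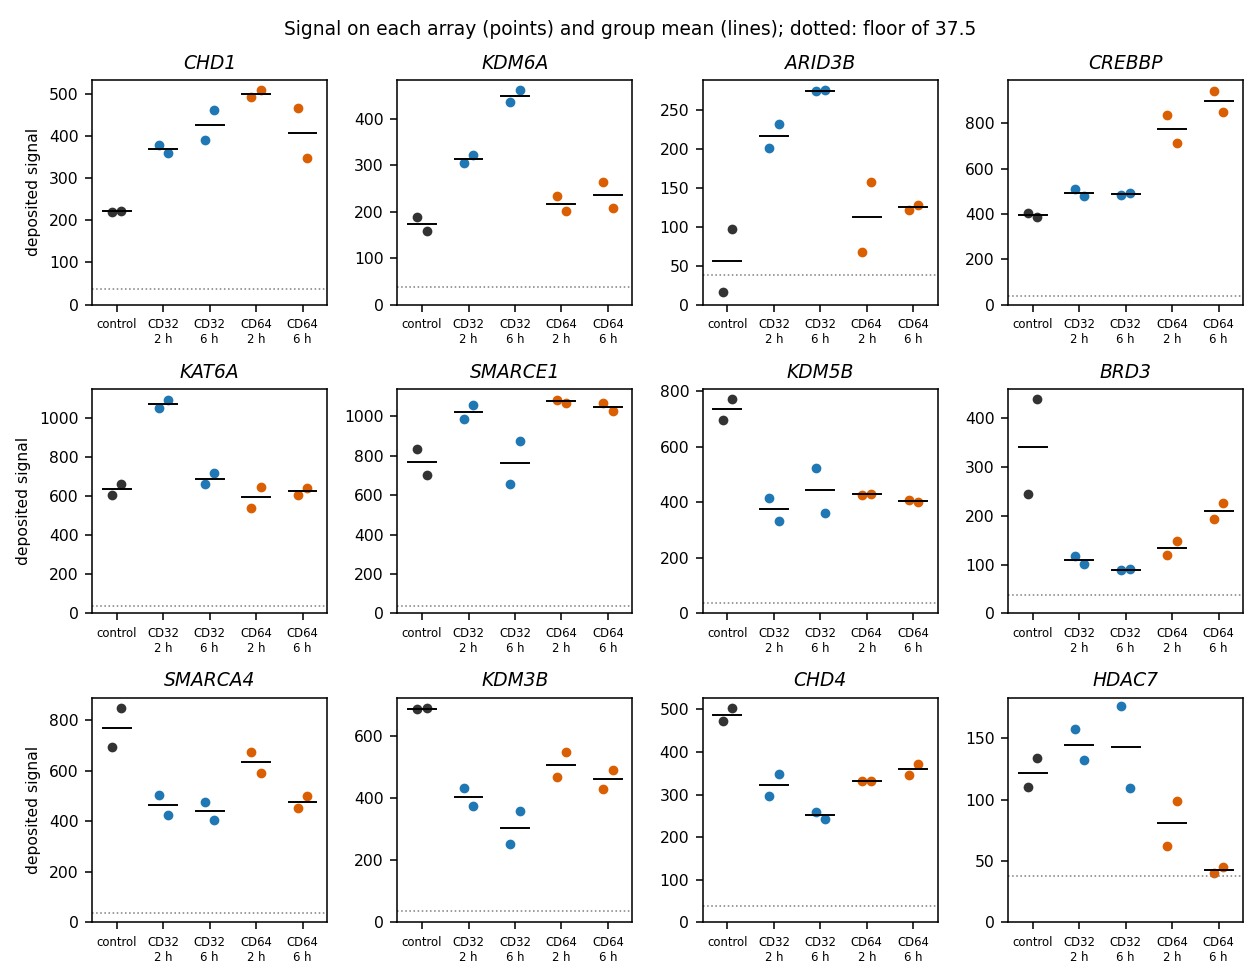
Deposited signal (linear, arbitrary units, axis from 0) of 12 genes on each of the 10 arrays; points are arrays, short lines group means, and the dotted line the floor of 37.5. CHD1 lies above and KDM5B, KDM3B, SMARCA4 and CHD4 below control in all cross-linked groups, CREBBP is highest after CD64, and KDM6A and ARID3B are highest after CD32.

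Of the 7 tested genes with a BRD symbol, 3 were called against control in 1 or more comparisons, each time lower, where 19.8% of all probe sets were lower in 1 or more. By comparison the counts were 1, 3, 2 and 1 of 7 in the order CD32 2 h, CD32 6 h, CD64 2 h and CD64 6 h. BRD3, a bromodomain protein of the BET family that binds acetylated histones, read 243.0 and 437.9 in control, 117.4 and 101.9 after 2 h of CD32, 88.9 and 90.0 after 6 h of CD32, 118.8 and 148.2 after 2 h of CD64 and 193.6 and 226.6 after 6 h of CD64. All cross-linked arrays lay below both control arrays, although these were far apart. It fell 2.98-fold (log2 -1.58 ± 0.356 SE, adjusted p = 0.0123) and 3.65-fold (log2 -1.87 ± 0.356 SE, adjusted p = 0.00369) after 2 h and 6 h of CD32 and 2.46-fold (log2 -1.30 ± 0.356 SE, adjusted p = 0.0313) after 2 h of CD64, and read 1.56-fold lower after 6 h of CD64 without a call (log2 -0.64 ± 0.356 SE, adjusted p = 0.273). The CD32 6 h call held in all 10 fits without 1 array. That of CD32 2 h was lost without control replicate 2 or either CD32 2 h array, and that of CD64 2 h without control replicate 2, either CD64 2 h array or CD64 6 h replicate 2. BRD2, the BET relative of BRD3, read 571.3 and 681.9 in control, 461.5 and 502.1 after 2 h of CD32, 540.5 and 443.7 after 6 h of CD32, 489.3 and 531.8 after 2 h of CD64 and 465.6 and 529.7 after 6 h of CD64 and was not called, with log2 changes of -0.38 to -0.29.

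BRD7, a subunit of a SWI/SNF complex, read 524.4 and 540.3 in control, 456.8 and 473.9 after 2 h of CD32, 380.8 and 302.0 after 6 h of CD32, 319.8 and 310.5 after 2 h of CD64 and 343.2 and 368.1 after 6 h of CD64. It lay below control on every cross-linked array, and fell 1.57-fold (log2 -0.65 ± 0.167 SE, adjusted p = 0.0186) after 6 h of CD32, 1.69-fold (log2 -0.76 ± 0.167 SE, adjusted p = 0.0114) after 2 h of CD64 and 1.5-fold (log2 -0.58 ± 0.167 SE, adjusted p = 0.0299) after 6 h of CD64. All 3 calls were lost with arrays centred on the median, and those at 6 h also without either control array, CD32 6 h replicate 2 (for CD32) or either CD64 6 h array (for CD64). That after 2 h of CD64 was lost without either CD64 2 h array. BRD8, a subunit of the same acetyltransferase complex as KAT5, read 857.1 and 729.3 in control, 528.8 and 479.7 after 2 h of CD32, 428.1 and 332.2 after 6 h of CD32, 997.0 and 681.2 after 2 h of CD64 and 679.6 and 521.5 after 6 h of CD64. After 6 h of CD32 it fell 2.1-fold (log2 -1.07 ± 0.209 SE, adjusted p = 0.00433), held in all 10 fits without 1 array. BRD1, BRD3OS and BRDT were not called; BRDT, a testis gene, lay above the floor on 3 arrays.

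SMARC symbols cover ATPases and other subunits of the SWI/SNF complexes, the ISWI ATPases SMARCA1 and SMARCA5, and the annealing helicase SMARCAL1. Of 12 genes 5 were called in 1 or more comparisons with control, 41.7% beside 35.4% of all probe sets, 1 of them higher. By comparison the counts were 1, 3, 2 and 2 of 12, with 15.5%, 20.0%, 15.9% and 20.6% of all probe sets called. SMARCA4, the ATPase that drives most SWI/SNF complexes, read 692.9 and 845.9 in control, 503.0 and 425.6 after 2 h of CD32, 477.2 and 404.6 after 6 h of CD32, 674.5 and 592.4 after 2 h of CD64 and 452.7 and 500.2 after 6 h of CD64. All cross-linked arrays lay below control. It fell 1.65-fold (log2 -0.73 ± 0.162 SE, adjusted p = 0.0116) and 1.74-fold (log2 -0.80 ± 0.162 SE, adjusted p = 0.00526) after 2 h and 6 h of CD32 and 1.61-fold (log2 -0.69 ± 0.162 SE, adjusted p = 0.0115) after 6 h of CD64. The CD32 6 h call held in all 10 fits without 1 array and was lost with arrays centred on the median. The CD32 2 h call was lost without control replicate 2 or CD32 2 h replicate 2, and the CD64 6 h call without control replicate 2 or CD64 6 h replicate 1. SMARCA2, the alternative ATPase of these complexes, was not called, with log2 changes from -0.89 to -0.14.

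SMARCB1, a core SWI/SNF subunit and tumour suppressor, read 573.6 and 494.2 in control, 611.8 and 442.6 after 2 h of CD32, 508.0 and 471.1 after 6 h of CD32, 332.7 and 316.0 after 2 h of CD64 and 408.5 and 381.5 after 6 h of CD64. It was lowest after 2 h of CD64, 1.64-fold (log2 -0.71 ± 0.179 SE, adjusted p = 0.0208) below control, a call lost without control replicate 1 or either CD64 2 h array. SMARCE1, another subunit, read 834.6 and 704.1 in control, 983.7 and 1056.4 after 2 h of CD32, 654.7 and 873.3 after 6 h of CD32, 1084.7 and 1067.3 after 2 h of CD64 and 1068.9 and 1025.0 after 6 h of CD64. It rose 1.4-fold (log2 0.49 ± 0.143 SE, adjusted p = 0.0408) and 1.37-fold (log2 0.45 ± 0.143 SE, adjusted p = 0.0472) after 2 h and 6 h of CD64, calls lost in 8 of 10 and 7 of 10 fits without 1 array. The first was kept only without a CD32 6 h array, the second without those or control replicate 1.

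SMARCD2, an accessory subunit known for its part in granulocyte formation, read 483.2 and 435.0 in control, 407.2 and 360.4 after 2 h of CD32, 296.9 and 300.7 after 6 h of CD32, 438.3 and 376.7 after 2 h of CD64 and 333.2 and 390.4 after 6 h of CD64. It fell 1.53-fold (log2 -0.62 ± 0.174 SE, adjusted p = 0.0295) after 6 h of CD32, a call lost without control replicate 1 or either CD32 6 h array, and under quantile, cyclic loess and median scaling. SMARCAL1 read 305.8 and 322.4 in control, 271.3 and 363.7 after 2 h of CD32, 144.7 and 206.8 after 6 h of CD32, 216.8 and 207.9 after 2 h of CD64 and 232.2 and 317.0 after 6 h of CD64 and fell 1.82-fold (log2 -0.86 ± 0.272 SE, adjusted p = 0.0481) after 6 h of CD32, a call kept only without CD32 6 h replicate 2. SMARCC2, a scaffold subunit, read lower in every group without a call, with log2 changes of -1.28 to -0.85 and a gap of 1.2 within the CD64 6 h pair. SMARCC1, SMARCD1, SMARCD3, SMARCA1 and SMARCA5 were not called against control.

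ARID proteins share an AT-rich DNA binding domain. ARID1A, the subunit that targets one class of SWI/SNF complex, read 376.4 and 463.8 in control, 323.8 and 353.1 after 2 h of CD32, 387.8 and 275.1 after 6 h of CD32, 235.7 and 250.7 after 2 h of CD64 and 231.9 and 217.4 after 6 h of CD64. It fell 1.72-fold (log2 -0.78 ± 0.223 SE, adjusted p = 0.0373) and 1.86-fold (log2 -0.90 ± 0.223 SE, adjusted p = 0.015) after 2 h and 6 h of CD64. The second call was lost without control replicate 2 or either CD64 6 h array, and the first in 8 of 10 fits without 1 array, all but those without a CD32 6 h array. ARID3B, a DNA-binding transcription regulator, read 15.9 and 97.0 in control, 201.7 and 232.0 after 2 h of CD32, 274.9 and 275.9 after 6 h of CD32, 68.0 and 157.3 after 2 h of CD64 and 122.0 and 128.6 after 6 h of CD64. Its CD32 arrays lay above all others. It rose 3.59-fold (log2 1.84 ± 0.504 SE, adjusted p = 0.0317) and 4.57-fold (log2 2.19 ± 0.504 SE, adjusted p = 0.0107) after 2 h and 6 h of CD32, but 1 control array lay below the floor, and the folds rest on where the floor was set. Without control replicate 1, the array below the floor, both calls were lost. They were also lost without either CD32 6 h array, and that at 2 h without either CD32 2 h array or CD64 6 h replicate 2 (adjusted p up to 0.178). ARID3A and ARID4B, a partner of the SIN3 corepressor, were not called, with log2 changes between -0.26 and 0.25.

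CHD1, a remodeller that binds methylated histone H3 at active genes, read 220.5 and 222.3 in control, 378.8 and 360.4 after 2 h of CD32, 391.9 and 461.0 after 6 h of CD32, 492.1 and 509.1 after 2 h of CD64 and 467.7 and 348.2 after 6 h of CD64. Both control arrays were close together and all 8 cross-linked arrays lay above them. The mean rose from 221.4 ± 1.27 (SD, n = 2) to 500.6 ± 12 (SD, n = 2) after 2 h of CD64. CHD1 rose 1.67-fold (log2 0.74 ± 0.188 SE, adjusted p = 0.0226) and 1.92-fold (log2 0.94 ± 0.188 SE, adjusted p = 0.0048) after 2 h and 6 h of CD32, and 2.26-fold (log2 1.18 ± 0.188 SE, adjusted p = 0.00184) and 1.82-fold (log2 0.87 ± 0.188 SE, adjusted p = 0.00702) after 2 h and 6 h of CD64. The CD32 6 h and CD64 2 h calls held in all 10 fits without 1 array, that of CD64 6 h was lost without CD64 6 h replicate 1, and that of CD32 2 h without any 1 control or CD32 2 h array (adjusted p up to 0.117).

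CHD4 and CHD3 are the ATPases of the NuRD complex, which joins remodelling to deacetylation by HDAC1 and HDAC2. CHD4 read 472.8 and 503.1 in control, 295.9 and 347.7 after 2 h of CD32, 259.5 and 243.5 after 6 h of CD32, 332.7 and 332.4 after 2 h of CD64 and 346.3 and 372.6 after 6 h of CD64, below control on all 8 cross-linked arrays. It fell 1.52-fold (log2 -0.60 ± 0.175 SE, adjusted p = 0.04) and 1.94-fold (log2 -0.96 ± 0.175 SE, adjusted p = 0.00286) after 2 h and 6 h of CD32. The second held in all 10 fits without 1 array, and the first in those without a CD32 6 h array only. CHD3 read 546.6 and 592.3 in control, 600.0 and 469.5 after 2 h of CD32, 582.0 and 803.7 after 6 h of CD32, 360.2 and 355.1 after 2 h of CD64 and 332.2 and 350.1 after 6 h of CD64. Here the CD64 arrays were the low ones, and it fell 1.59-fold (log2 -0.67 ± 0.184 SE, adjusted p = 0.0312) and 1.67-fold (log2 -0.74 ± 0.184 SE, adjusted p = 0.0149) after 2 h and 6 h of CD64. The first call was lost without any 1 control or CD64 2 h array and under quantile, cyclic loess and median scaling, the second without control replicate 2 or either CD64 6 h array. CHD1L, a remodeller of DNA repair, read lower in every group without a call, with log2 changes of -0.97 to -0.37. CHD2 read 65.2 and 50.5 in control, 102.5 and 139.7 after 2 h of CD32, 52.2 and 37.5 after 6 h of CD32, 39.3 and 37.4 after 2 h of CD64 and 82.4 and 59.7 after 6 h of CD64, highest on the CD32 2 h arrays and at 37.4 to 82.4 elsewhere, and was not called against control.

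Counted by comparison, after 2 h of CD32 5 of 53 genes were called higher and 7 lower, 22.6% in all, where 8.86% of all probe sets were higher and 6.60% lower (15.5% in all). After 6 h of CD32 4 were higher and 12 lower, 30.2%, beside 9.63% and 10.3% (20.0%). After 2 h of CD64 3 were higher and 9 lower, 22.6%, beside 7.64% and 8.24% (15.9%). After 6 h of CD64 3 were higher and 8 lower, 20.8%, beside 10.7% and 9.94% (20.6%). Among genes above the floor on all 10 arrays the calls were 12, 18, 15 and 16 of 46, or 26.1%, 39.1%, 32.6% and 34.8%, beside 27.2%, 35.4%, 29.2% and 36.8% of the probe sets of that kind, so the total share lay near the background in each comparison. The median log2 change of the 53 was -0.10, -0.35, -0.31 and -0.26, against -0.03, -0.08, -0.13 and -0.04 over all probe sets, in the order CD32 2 h, CD32 6 h, CD64 2 h and CD64 6 h. Downward calls outnumbered upward ones in all 4, which share their control arrays. The shares called higher and lower are given for all probe sets only, many of them near the floor. The downward lean is therefore not set beside probe sets of like detection, and nothing particular to these genes is read from it.

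The size of the split depended on the scaling, and after 2 h of CD64 so did its direction. The median of the 53 changes after 2 h of CD64 was -0.11 under quantile normalization, -0.12 under cyclic loess and -0.07 with arrays centred on the median, where that of all probe sets went from -0.13 to 0.00, 0.02 and 0.11. In the same order it was -0.10, -0.08 and -0.11 after 2 h of CD32. After 6 h it was -0.26, -0.21 and -0.23 with CD32, and -0.33, -0.33 and -0.30 with CD64. After 2 h of CD64 the calls were 2 higher and 4 lower under quantile normalization, 3 and 4 under cyclic loess, and 4 and 0 with arrays centred on the median. After 6 h of CD32 they were 4 and 8, 5 and 8, and 3 and 6 in the same order. After 2 h of CD32 they were 6 and 9, 6 and 9, and 3 and 6, and after 6 h of CD64 2 and 8, 4 and 9, and 2 and 7. Quantile normalization ended the calls of EZH2, HDAC4, SMARCAL1 and SMARCD2 after 6 h of CD32, of ARID1A, BRD3, CHD3, HDAC6, KMT2A and SMARCE1 after 2 h of CD64 and of HDAC7 and SMARCE1 after 6 h of CD64. Cyclic loess ended those of BRD7, EZH2, SMARCAL1 and SMARCD2 after 6 h of CD32, of ARID1A, BRD3, CHD3, HDAC6 and KMT2A after 2 h of CD64 and of SMARCE1 after 6 h of CD64. Centring on the median ended those of CHD1, CHD4, HDAC1 and KDM3B after 2 h of CD32, of BRD7, EZH2, HDAC1, KDM5B, SMARCA4, SMARCAL1 and SMARCD2 after 6 h of CD32, of ARID1A, BRD3, BRD7, CHD3, HDAC6, KAT7, KDM5B, KMT2A and SMARCB1 after 2 h of CD64 and of BRD7 and SMARCE1 after 6 h of CD64. The CD32 2 h count of 12 fell to 5 and 6 without control replicates 1 and 2, and to 3 without either CD32 2 h array. Of 16 calls after 6 h of CD32, 7 were made without control replicate 1, and 9 when CD32 6 h replicate 1 was left out. The CD64 2 h count of 12 fell to 4 and 7 without control replicates 1 and 2, and to 2 and 3 without CD64 2 h replicates 1 and 2. The CD64 6 h count of 11 fell to 4 without either CD64 6 h array. Fitted on the 4 arrays of the groups compared alone, the counts were 1, 0, 0 and 3 in the order CD32 2 h, CD32 6 h, CD64 2 h and CD64 6 h.

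**Figure D3:**
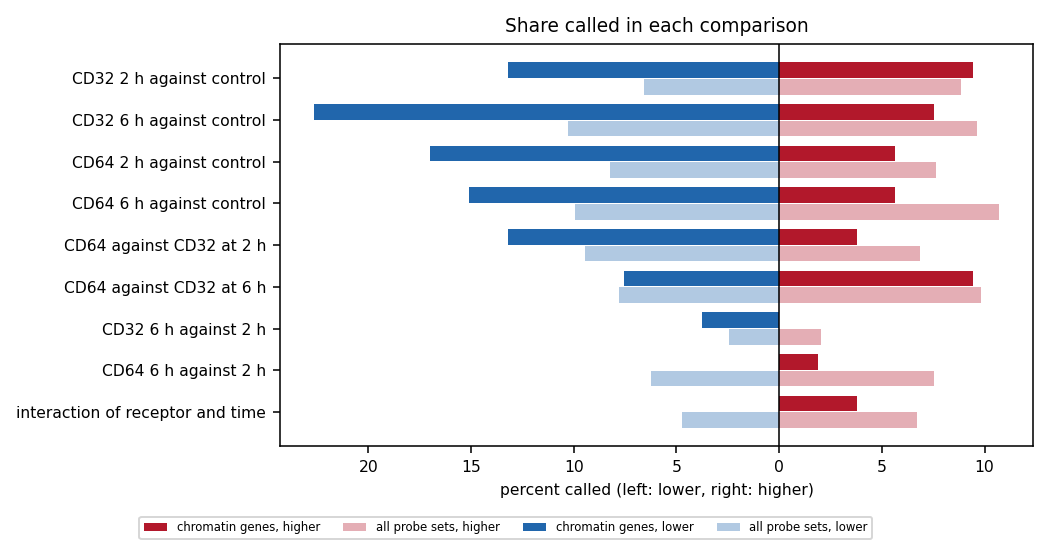
Percent called at an adjusted p under 0.05, lower to the left and higher to the right, for the 53 tested chromatin genes (dark bars) and for all 7708 probe sets (pale bars) in 9 comparisons. In the 4 comparisons with control the dark bars reach farther to the left than the pale ones, with 12 of 53 genes lower after 6 h of CD32. The pale bars include probe sets near the floor, and no split by direction is given for well detected probe sets alone. The size of the split depended on the scaling, and after 2 h of CD64 so did its direction: with arrays centred on the median, 4 were higher and 0 lower. In the other comparisons with control more genes were lower than higher under each scaling.

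The receptors differed at 2 h in 9 of 53 genes, 2 higher and 7 lower after CD64 than after CD32, or 17% beside 16.3% of all probe sets (6.86% higher and 9.43% lower). CREBBP was higher after CD64, 1.57-fold (log2 0.65 ± 0.132 SE, adjusted p = 0.00718), and so was BRD8, 1.64-fold (log2 0.71 ± 0.209 SE, adjusted p = 0.0413). KAT6A was 1.82-fold (log2 -0.86 ± 0.127 SE, adjusted p = 0.00124) lower, KAT7 1.59-fold (log2 -0.67 ± 0.166 SE, adjusted p = 0.0183) lower, SMARCB1 1.6-fold (log2 -0.68 ± 0.179 SE, adjusted p = 0.0246) lower and BRD7 1.48-fold (log2 -0.56 ± 0.167 SE, adjusted p = 0.0424) lower after CD64. SMARCC1, a scaffold subunit of SWI/SNF, read 553.3 and 605.1 after CD32 and 451.8 and 374.6 after CD64, 1.41-fold (log2 -0.49 ± 0.146 SE, adjusted p = 0.0421) lower, and HDAC1 was 1.27-fold (log2 -0.35 ± 0.105 SE, adjusted p = 0.047) lower. CHD2, a relative of CHD1, was 3.12-fold (log2 -1.64 ± 0.35 SE, adjusted p = 0.00892) lower after CD64, where 1 array lay just under the floor. The KAT6A call held in all 10 fits without 1 array, and that of CREBBP was lost without CD32 2 h replicate 2 or CD64 2 h replicate 1. That of BRD8 was lost without either control array, either CD32 2 h array or CD64 2 h replicate 1, and that of BRD7 without either CD32 2 h array, either CD64 2 h array or either CD64 6 h array. Those of KAT7, SMARCB1 and CHD2 were lost without either CD32 2 h array or CD64 2 h replicate 1, without CD32 2 h replicate 1 or either CD64 2 h array, and without CD32 2 h replicate 2 or either CD64 2 h array. SMARCC1 was lost without any 1 array other than control replicate 1, control replicate 2 and CD64 2 h replicate 1, and HDAC1 without any 1 array other than control replicate 1, control replicate 2 and CD32 2 h replicate 2. The count of 9 fell to 3 without either CD32 2 h array, and to 2 and 4 without CD64 2 h replicates 1 and 2. Under quantile or cyclic loess normalization 4 were higher and 3 lower, and with arrays centred on the median 5 and 1. Each of these scalings ended the calls of KAT7, SMARCC1, SMARCB1 and BRD7, and centring on the median also those of HDAC1 and KAT6A. A floor at percentile 10 ended the calls of CHD2 and HDAC1, and a fit without the variance trend those of SMARCC1, SMARCB1, BRD7, BRD8 and HDAC1. Without a filter on low values BRD8 and HDAC1 were lost, and none of the 9 was called when only the 2 groups were fitted.

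At 6 h the receptors also differed in 9 genes, 5 higher and 4 lower after CD64, or 17% beside 17.6% of all probe sets (9.81% higher and 7.80% lower). CREBBP was 1.84-fold (log2 0.88 ± 0.132 SE, adjusted p = 0.00117) higher, a call that held under every alternative and in all 10 fits without 1 array. BRD3, lower after CD32, was 2.34-fold (log2 1.23 ± 0.356 SE, adjusted p = 0.0365) higher after CD64, KDM3B 1.53-fold (log2 0.61 ± 0.19 SE, adjusted p = 0.0491) and SMARCE1 1.38-fold (log2 0.47 ± 0.143 SE, adjusted p = 0.0446) higher. SMARCA5, an ISWI ATPase, read 635.3 and 580.4 in control, 669.9 and 557.6 after 2 h of CD32, 456.8 and 495.8 after 6 h of CD32, 986.9 and 712.9 after 2 h of CD64 and 1178.7 and 752.1 after 6 h of CD64, and was 1.98-fold (log2 0.98 ± 0.215 SE, adjusted p = 0.00961) higher after 6 h of CD64 than of CD32, with CD64 arrays far apart. Lower after CD64 were HDAC7, 3.25-fold (log2 -1.70 ± 0.406 SE, adjusted p = 0.0148), HDAC5, 3.23-fold (log2 -1.69 ± 0.408 SE, adjusted p = 0.0156), CHD3, 2.01-fold (log2 -1.0 ± 0.184 SE, adjusted p = 0.0036), and KDM6A, 1.92-fold (log2 -0.94 ± 0.228 SE, adjusted p = 0.0161). The CHD3 call held in all 10 fits without 1 array. That of KDM3B was lost without any 1 array other than CD32 6 h replicate 2, and that of SMARCE1 without any 1 array other than control replicate 1, control replicate 2 and CD32 6 h replicate 2. BRD3 was lost without CD32 2 h replicate 1, either CD32 6 h array or either CD64 6 h array, and SMARCA5 without CD32 6 h replicate 1 or CD64 6 h replicate 1. HDAC7 was lost without CD32 6 h replicate 1 or either CD64 6 h array, HDAC5 without either CD32 6 h array or either CD64 6 h array, and KDM6A without either CD32 6 h array or CD64 6 h replicate 2. Of 9 calls 2 were made when CD32 6 h replicate 1 was left out, and 3 when either CD64 6 h array was. Under quantile or cyclic loess normalization 2 were higher and 5 lower, and with arrays centred on the median 2 and 4. Each of these scalings ended the calls of BRD3, KDM3B and SMARCE1. Without a filter on low values these 3, HDAC5 and SMARCA5 were lost, and without the variance trend KDM3B, SMARCE1 and SMARCA5. When only the 2 groups were fitted, CREBBP and HDAC5 stayed called.

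**Figure D4:**
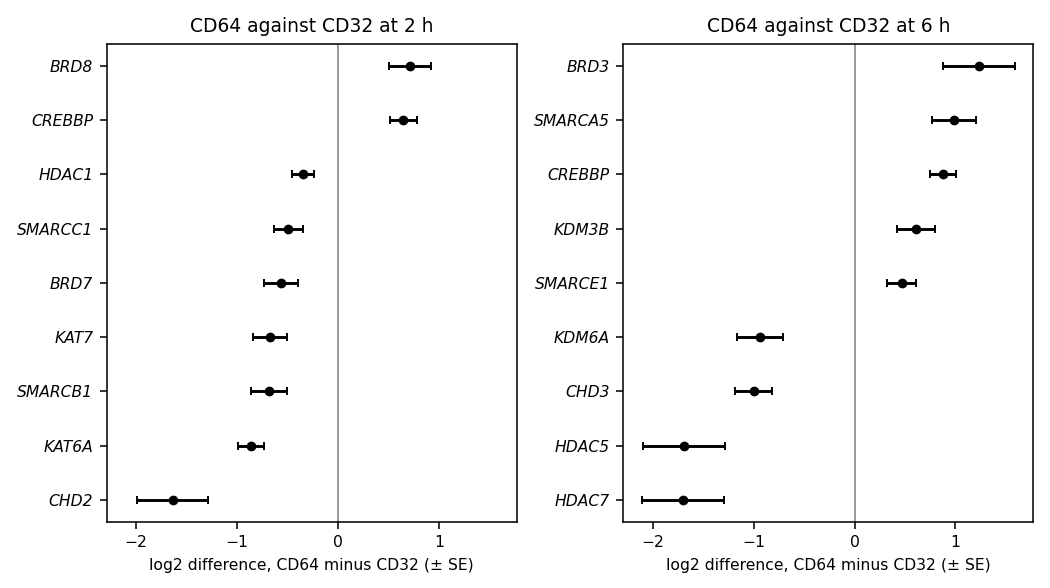
Log2 difference of CD64 minus CD32 (points) with its standard error from limma (bars), at 2 h (left) and 6 h (right), for the 9 genes called at each time. CREBBP lies to the right of 0 at both times, KAT6A and CHD2 to the left at 2 h, and HDAC7, HDAC5, CHD3 and KDM6A to the left at 6 h.

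Few genes differed between 2 h and 6 h. With CD32 2 of 53 were called, both lower at 6 h (3.77%, beside 4.46% of all probe sets, with 2.43% lower): KAT6A fell 1.56-fold (log2 -0.64 ± 0.127 SE, adjusted p = 0.0197) and CHD2 2.7-fold (log2 -1.44 ± 0.35 SE, adjusted p = 0.0461), with 1 CHD2 array at 6 h at the floor. With CD64 1 was called (1.89%, beside 13.8%, with 7.56% higher and 6.25% lower): KDM5A, a demethylase that acts on the same mark as KDM5B, was 3.27-fold (log2 1.71 ± 0.51 SE, adjusted p = 0.0492) higher at 6 h. Its control arrays, 131.1 and 54.1, spanned the values at 2 h. The interaction of receptor and time was called for 2 genes (3.77%, beside 11.5%, with 6.72% above 0), CHD2 (log2 2.30 ± 0.495 SE, adjusted p = 0.0133) and KAT6A (log2 0.72 ± 0.179 SE, adjusted p = 0.0258), both lower at 6 h than at 2 h with CD32. With CD64 their changes over time were 0.87 and 0.08, without a call. The call of KDM5A over time was lost under quantile, cyclic loess and median scaling, and without any 1 array other than control replicate 1 and control replicate 2, and that of CHD2 over time without any 1 array other than control replicate 1 and control replicate 2. KAT6A over time was lost without either CD32 2 h array or either CD32 6 h array. The interactions were lost without CD32 6 h replicate 2 or CD64 6 h replicate 1 for CHD2, and without either CD32 2 h array, CD32 6 h replicate 1, CD64 2 h replicate 1 or either CD64 6 h array for KAT6A. The KAT6A interaction was also lost under quantile, cyclic loess and median scaling and without the variance trend (adjusted p up to 0.56), with HDAC5 called in its place under cyclic loess, and that of CHD2 with the floor at percentile 10 and with log2(value + 16). Over time with CD32 both calls were lost with arrays centred on the median and without the variance trend, and that of CHD2 also with either of these changes at low values or with no filter on them. That of KDM5A was lost too with the floor at percentile 10, with no filter on low values and without the variance trend. None of the 3 calls over time was made when only the 2 groups were fitted.

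Partners of these proteins were read from 8 lists of other chromatin genes. Counts and medians run in the order CD32 2 h, CD32 6 h, CD64 2 h and CD64 6 h, and the shares and medians of all probe sets are those given above. For these lists and the proliferation list 66 calls were picked, some of the proliferation calls not named in the text. Of the 66, 33 held in all 10 fits without 1 array and 13 held there and under all processing alternatives. Those that held in fewer than 5 of the 10 fits without 1 array, or under fewer than 5 processing alternatives, are marked as they come. Of 8 Polycomb partners tested, 2, 2, 2 and 1 were called higher and 0, 0, 0 and 1 lower, with median log2 changes of 0.27, 0.13, 0.15 and 0.04. RYBP, a Polycomb subunit, rose 1.78-fold, 1.98-fold, 1.33-fold and 1.78-fold, and the subunit PHC2 rose 1.41-fold and 1.44-fold after CD32. JARID2, which guides the EZH2 complex, fell 2-fold (log2 -1.0 ± 0.179 SE, adjusted p = 0.00234) after 6 h of CD64, and the zinc finger protein YY1 rose 1.64-fold after 2 h of CD64.

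Of 9 partners of deacetylases 1, 1, 1 and 0 were higher and 0, 2, 1 and 2 lower, with medians of -0.03, 0.00, -0.13 and -0.11. The corepressor subunit TBL1X rose 1.65-fold and 1.61-fold after CD32, each kept in 3 of 10 fits without 1 array. After 2 h of CD64 SAP18 rose 1.24-fold, a call kept in 1 of 10 such fits and under 3 of 10 processing alternatives. GPS2 fell 1.91-fold at that time, a call kept under 4 of 10 processing alternatives. The histone-binding proteins RBBP4 and RBBP7 fell 1.58-fold and 1.36-fold after 6 h of CD64, and RBBP4 fell 1.46-fold after 6 h of CD32. Of the 7 sirtuins, deacetylases that use NAD, SIRT1 was the only one called higher, in each of the 4 comparisons, by 1.65-fold, 1.74-fold, 2.41-fold and 1.69-fold. SIRT2 fell 1.65-fold after 6 h of CD32 and SIRT7 1.54-fold after 6 h of CD64, and the medians of the list were -0.26, -0.21, -0.47 and -0.23.

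Of 13 other histone methyltransferases and their partners 0 were called higher and 2, 4, 3 and 1 lower, with medians of -0.05, -0.31, -0.51 and -0.15. EHMT2, which lays down the repressive methyl mark that KDM3B can remove, fell 1.65-fold after 2 h of CD32, 2.14-fold after 2 h of CD64 and 4.75-fold (log2 -2.25 ± 0.214 SE, adjusted p = 4.1e-05) after 6 h of CD64, the first of these kept in 3 of 10 fits without 1 array. PRMT1, an arginine methyltransferase, fell 1.3-fold and 1.71-fold after 2 h of CD32 and CD64, and KMT5A fell 2.28-fold after 6 h of CD32. NSD3 fell 3.25-fold at that time as fitted, with 1 array below the floor, and was kept in 4 of 10 fits without 1 array. Of 6 DNA methylation genes 1, 0, 2 and 2 were higher and 1, 1, 0 and 1 lower, with medians of -0.03, -0.23, 0.05 and 0.14. The maintenance methyltransferase DNMT1 fell 1.84-fold (log2 -0.88 ± 0.107 SE, adjusted p = 0.000299) and 1.9-fold (log2 -0.93 ± 0.107 SE, adjusted p = 0.00015) after CD32 and 1.53-fold after 6 h of CD64. The glycosylase MBD4 rose 1.51-fold, 1.75-fold and 2.01-fold after CD32 at 2 h and CD64 at 2 h and 6 h, and MBD1, a methyl-CpG binding protein, rose 1.58-fold after 2 h of CD64.

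Of 17 remodeller partners 1, 3, 3 and 2 were higher and 1, 4, 0 and 2 lower, with medians of -0.28, -0.41, -0.13 and -0.14. BCL7B, a SWI/SNF subunit, rose 4.7-fold (log2 2.23 ± 0.233 SE, adjusted p = 0.000108) and 5.23-fold (log2 2.39 ± 0.233 SE, adjusted p = 4.86e-05) after CD32 and 2.37-fold and 2.9-fold after CD64. The ATPase RUVBL2 fell 1.43-fold after 2 h of CD32, the ISWI partner BPTF 2.38-fold after 6 h of CD32 and BAZ2A 2.99-fold after 6 h of CD64, while the SWI/SNF subunit ACTL6A rose 1.58-fold after 2 h of CD64, kept in 1 of 10 fits without 1 array. Of 14 acetyltransferase partners 1, 1, 3 and 0 were higher and 1, 3, 1 and 1 lower, with medians of 0.02, 0.12, -0.25 and 0.18. TADA3, an adaptor of the KAT2A and KAT2B complexes, fell 2.06-fold and 1.95-fold after CD64. The ING4 subunit of the KAT7 complex fell 2.46-fold and 2.24-fold after CD32. HAT1 rose 1.27-fold after 2 h of CD32, ING1 1.89-fold after 6 h of CD32 and TAF5L 2.09-fold after 2 h of CD64, the last kept in 2 of 10 fits without 1 array.

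Of 14 histone chaperones and heterochromatin proteins 1, 2, 1 and 1 were higher and 1, 4, 2 and 3 lower, with medians of -0.09, -0.18, -0.09 and -0.22. The chaperone HIRA, which deposits histones outside replication, rose 2.14-fold and 1.98-fold after CD32 and 4.63-fold (log2 2.21 ± 0.178 SE, adjusted p = 1.55e-05) after 6 h of CD64. The chaperone subunit SSRP1 fell 1.81-fold after 6 h of CD64, and CHAF1B, which loads histones at replication, fell 2.57-fold after 6 h of CD32. The CHAF1B call was kept in 2 of 10 fits without 1 array and under 4 of 10 processing alternatives. Of the heterochromatin proteins CBX5 fell 1.63-fold after 2 h of CD32, kept in 1 of 10 fits without 1 array, and after 2 h of CD64 CBX3 rose 1.81-fold and TRIM28 fell 1.61-fold.

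Array-wide measures differed by group too. The mean log2 signal of 9 probe sets for added bacterial and phage transcripts was 10.38 in control, 11.03 and 12.11 after 2 h and 6 h of CD32, and 10.55 and 9.034 after 2 h and 6 h of CD64. The actin transcript read higher at its 3′ than at its 5′ probe set, with ratios of 1.302, 1.556, 1.989, 1.807 and 1.118 in that order, and the median signal of the 10 arrays lay between 101.2 and 152.7. The part of these measures in the changes of the chromatin genes was not tested. The number of arrays limits the precision of every value.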

How the data were processed

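Expression was measured on a 1-colour oligonucleotide array in 10 samples. The deposited values were signal intensity, 1 per probe set and array, on a linear scale; the scanner software is not given in the sources used here, and the values themselves show a scaling per array. Gene symbols came from the platform annotation (7840 probe sets with 1 symbol, 388 with several). Groups followed the sample titles. The floor of 37.5 was percentile 25 of all values. Values under it were set to it, log2 was taken, and probe sets above it on at least 2 arrays were fitted with limma 3.58.1 in R 4.3.3 (1 term per group, variance trend), with 5 residual and 5.65 prior degrees of freedom and a median SD of 0.286. Tests were two-sided with Benjamini-Hochberg adjustment over 7708 probe sets, and errors are limma's standard errors unless called SD. Bacterial and other control probe sets were left out of the fit. Values in every array are given for genes called against control, by role; partner genes are those with the largest called changes, up to 2 per list and comparison. This symbol rule and the gene lists were drawn up with earlier results of these data known. Alternatives were other scalings, floors, filters and variance models, and leaving out each array.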

Additional observations from a re-analysis of the deposited data

Results flagged for a closer look

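The effect of CD64 differed from that of CD32 in limma's test of the difference, on the log2 scale as CD64 minus CD32. At 2 h this held for CREBBP (0.65) and BRD8 (0.71), higher after CD64. It also held for HDAC1 (-0.35), SMARCC1 (-0.49), BRD7 (-0.56), KAT7 (-0.67), SMARCB1 (-0.68), KAT6A (-0.86) and CHD2 (-1.64), lower after CD64. At 6 h SMARCE1 (0.47), KDM3B (0.61), CREBBP (0.88), SMARCA5 (0.98) and BRD3 (1.23) were higher after CD64. KDM6A (-0.94), CHD3 (-1.0), HDAC5 (-1.69) and HDAC7 (-1.70) were lower. These were 17% of the genes at each time, beside 16.3% and 17.6% of all probe sets at 2 h and 6 h. Of these calls, only that of CREBBP at 6 h held under every alternative and without each array.

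The change from 2 h to 6 h differed between the receptors, by the interaction term, for KAT6A (0.72) and CHD2 (2.30). These were 3.77% of the genes, beside 11.5% of all probe sets, and both calls were lost under some alternatives. The groups, of 2 arrays each, were too small for a test of single outlying arrays.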

How the results depend on the processing

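None of the 74 calls of the chromatin genes changed sign under any alternative, but 3 of 74 stayed called under all 10 processing alternatives and all 10 fits without 1 array: CREBBP after 6 h of CD64 against control, CREBBP in CD64 against CD32 at 6 h, and KAT6A after 2 h of CD32 against control. Fits with only the groups compared, which leave fewer arrays to estimate the spread, kept 8 of 74 calls and gave 1, 0, 0 and 3 genes against control (CD32 2 h, CD32 6 h, CD64 2 h, CD64 6 h), 0 and 2 for CD64 against CD32 at 2 h and 6 h, and 0 and 0 for 6 h against 2 h of CD32 and CD64. With arrays centred on the median 39 of 74 calls were kept, with counts of 9 after 6 h of CD32, 4 after 2 h of CD64, 0 for CD32 over time and 2 for CD64 over time. Quantile normalization kept 53 and gave 6 after 2 h of CD64 and 1 for the interaction. Cyclic loess kept 55 and gave 7 after 2 h of CD64 and 2 for CD64 over time. Without a filter on low values 49 were kept, with 15 genes in the F-test, 6 after 2 h of CD64, 5 for CD64 against CD32 at 6 h and 1 for CD32 over time. Without the variance trend 47 were kept, with 7 after 2 h of CD64, 5 for CD64 against CD32 at 2 h, 0 and 0 for CD32 and CD64 over time and 1 for the interaction. A floor at percentile 10 kept 68 and gave 1 for CD32 over time, 0 for CD64 over time and 1 for the interaction. Log2(value + 16) with no floor kept 71 and gave 1 for CD32 over time and 4 for the interaction. Probe sets above the floor on all 10 arrays kept 67 of 67 calls that could be tested and gave 14 for CD64 against CD32 at 6 h and 5 for the interaction. That setting leaves the values of these genes as they were and adjusts over fewer probe sets, of which more are called. The calls it kept are therefore no support. Without 1 array the counts ran from 3 to 12 (CD32 2 h), 7 to 14 (CD32 6 h), 2 to 11 (CD64 2 h), 4 to 12 (CD64 6 h), 2 to 9 and 2 to 8 (CD64 against CD32 at 2 h and 6 h), 0 to 2 and 0 to 1 (CD32 and CD64 over time), 0 to 3 (interaction) and 17 to 22 (F-test); a group left with 1 array was assumed to vary like the others. Averaging all probe sets of a gene left the 74 calls in place, since each of these genes has 1. The cause of these shifts was not tested. The same alternatives for the partner genes were added after seeing the data and reversed none of those named. No paired analysis was possible because the labels number the control arrays alone and give the cross-linked groups no shared replicate numbers.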
